A study of Mus musculus with 83 samples.

Results

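Single morulae sired by heat-exposed or sham-housed male mice were compared across all genes of the embryo table. All embryo columns labelled as morulae were taken, 22 fertilized by control sperm and 21 by sperm of heated males, which makes 43 of the 83 samples of the series (34 others are 4-cell embryos). Fathers of both groups were 8 to 12 weeks old. Heated males spent 7 days in an animal intensive care unit that ran at 35 °C for 8 h and at 25 °C for 16 h of each cycle, sham males were kept in the same kind of unit at a constant 21 °C, and both were killed on day 8. No embryo was itself heated according to the labels, while the sources used here do not give the strain, the mothers or the route of fertilization. The question is whether a father's warm week alters the transcripts of his embryos, and the title also asks about developmental pace.

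The morula is the ball of cells that forms after the last rounds of cleavage before a cavity opens. Its cells flatten against each other through E-cadherin, outer cells become polar, and Hippo signalling then separates an outer trophectoderm from an inner mass that keeps pluripotency factors. By this stage most maternal transcripts of the egg have been cleared and the embryo runs on its own transcription. Sperm bring a genome, chromatin marks and a small load of RNA.

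Polyadenylated RNA of each embryo was measured as TPM, a share of transcripts scaled to 1000000 per library, for 23845 genes. Read depth cannot be read from TPM and is unknown here. Markers of the labelled stage were present: Cdx2, Gata3, Krt8, Krt18, Pou5f1, Nanog and Cdh1 were above 0 in all 22 control and 21 heat morulae. Markers of earlier or maternal RNA went different ways. Zscan4d, a gene of the 2-cell stage, was above 0 in 2 control and 2 heat morulae. Obox6 was above 0 in all 22 control and 21 heat morulae, with medians of 132.3 and 188.8 TPM. Values of Zp3 and Gdf9 are given below. Of 22 cumulus cell genes, 14 were at 0 in every morula and the summed level of the list ranged from 0.28 to 8.63 TPM in control and from 0.11 to 15.6 TPM in heat embryos. Of 22 genes of haploid male germ cells, 8 were at 0 in every morula, and their sum reached at most 17.4 TPM in any control morula and 14.6 TPM in any heat morula. Blood and connective tissue genes summed to between 22.0 and 260.2 TPM in control and between 20.0 and 174.8 TPM in heat morulae, with 2 of 12 at 0 in every morula. The alpha globin gene Hba-a2 was detected in 21 control and 20 heat morulae (medians 35.3 and 23.6 TPM), and Cd68 in all 22 and 21. The beta globin gene Hbb-bs was detected in 1 control and 1 heat morula, and Hbb-bt in 1 and 0. Ptprc was at 0 in every morula, so the blood genes of the list did not go together. The part of such transcripts in the results was not tested. Parents, litters and collection days are not labelled. Embryos of the same parents may therefore be among the replicates, and p-values measure the spread between embryos alone. In whole embryos, fewer cells of a type and less RNA per cell cannot be told apart.

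No gene passed the threshold between morulae of heated and of control fathers. With limma on log2(TPM + 1), 0 of 7897 genes tested (0%) had an adjusted p under 0.05, and the smallest adjusted p was 0.144. A limma fit on ranks within each gene called 0 genes as well, with 459 at an unadjusted p under 0.05. At an unadjusted p under 0.05, 326 genes (4.13% of those tested) were higher and 152 (1.92%) were lower in heat morulae. The gene lowest in p, Zfp931, carries the name of a zinc finger protein and lies at the end of a stretch of chromosome 2 where most measured neighbours were also lower. The other genes at the top of the ranking include the mitochondrial Tmem126a, the transport gene Bet1 and the testis-type cytochrome Cyct on the lower side and Erdr1 on the higher side. One call each was made without control replicate 9 and without heat replicate 18 (Zfp931, adjusted p = 0.0276 and 0.0349) and without control replicate 13 (2200002J24Rik, adjusted p = 0.0251).

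More genes leaned higher than lower. The median log2 fold change over all genes tested was 0.13 and 67.8% of them had a higher mean in heat morulae. Genes detected above 0 TPM numbered 10299 ± 1411 (SD, n = 22) in control and 10951 ± 855 (SD, n = 21) in heat morulae, a difference of 652 with an SE of 354 (two-sided permutation test, p = 0.0766). Counted from 1 TPM the difference was 251 (p = 0.399), and from 5 TPM it was 190 (p = 0.476). Leaving out control replicate 19 or 22 or heat replicate 6 or 11 took the p of the count above 0 TPM to between 0.0395 and 0.0494. The lean of the gene-wide median moved with this number. With the detected genes of each embryo as a covariate the median was -0.07 and 38.7% of genes were higher, with quantile normalization it was -0.0032, and with median-of-ratios scaling 0.05. Directions of single genes are therefore given below on the deposited scale, and gene lists are set against the median of all genes under each scaling. Counts of list members with a higher mean are to be read beside the 67.8% of all genes. Some list members had a median under 1 TPM in 1 group and may have passed the filter on low values through the other group alone. Such members carry no weight in the list counts.

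Zfp931 is shown first because it had the smallest p of all genes, and Gm14403 because it came next among genes of the same stretch. The 250 bases before the start of each are printed 5′ to 3′ on the gene's strand from RefSeq (GRCm38.p6, the assembly of mm10). Capitals mark runs of at least 20 bases that occur unchanged in both.
Zfp931: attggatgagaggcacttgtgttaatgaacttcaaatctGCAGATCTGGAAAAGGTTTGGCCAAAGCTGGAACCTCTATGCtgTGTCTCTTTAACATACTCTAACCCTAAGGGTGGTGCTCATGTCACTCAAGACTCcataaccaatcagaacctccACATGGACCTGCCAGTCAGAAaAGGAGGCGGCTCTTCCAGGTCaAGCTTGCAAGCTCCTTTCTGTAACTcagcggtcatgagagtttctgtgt
Gm14403: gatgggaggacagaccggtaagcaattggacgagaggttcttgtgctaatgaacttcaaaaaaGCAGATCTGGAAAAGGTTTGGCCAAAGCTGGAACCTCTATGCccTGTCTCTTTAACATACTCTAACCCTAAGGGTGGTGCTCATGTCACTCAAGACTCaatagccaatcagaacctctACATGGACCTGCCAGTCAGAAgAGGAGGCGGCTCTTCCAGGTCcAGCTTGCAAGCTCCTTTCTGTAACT
The first window is chr2:178078426-178078675 on the minus strand and the second chr2:177497976-177498225 on the plus strand. Over the 226 aligned positions, 212 bases were the same (93.8%). The longest run in common, 54 bases in length, was found in the same window of 16 of 27025 genes with a promoter in the RefSeq table (0.0592%), and all 16 lie on chromosome 2. Of these 16 genes, 9 were tested in morulae, and all 9 had a lower mean in heat embryos. These 9 include Zfp931 and Gm14403, from which the run was taken. All 9 are among the 15 genes of the stretch, which was singled out by its values, so the count is not separate support. A match of letters describes the window and says nothing of what binds there.

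Zfp931 (chromosome 2, 178066446 to 178078425) ranged from 0 to 4.91 TPM in control morulae with a median of 1.62, and from 0 to 2.42 TPM in heat morulae with a median of 0.42. It was detected in 21 control and 18 heat embryos. With a heat median under 1 TPM, it passed the filter on low values through the control group alone. The groups overlapped, with most heat embryos below the control median. Its log2 fold change was -0.83 (SE 0.18, limma adjusted p = 0.144), and over the alternatives the adjusted p ran from 0.0193 to 0.566. The lowest of these came from a fit that takes 1 spread from all 77 embryos, in which Zfp931 and Gm11744 (adjusted p = 0.0469) were called.

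Gm14403 (chromosome 2, 177498226 to 177512311) had a median of 6.11 TPM in control and 2.20 TPM in heat morulae, with ranges of 0 to 15.2 and 0 to 7.02 TPM. Most heat embryos lay below the control median and the ranges overlapped. Its log2 fold change was -1.02 (SE 0.26, limma adjusted p = 0.341).

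The stretch from Gm14393 to Zfp931 spans positions 175057954 to 178078425 of chromosome 2, a region known in the mouse for tandem copies of zinc finger genes. It was singled out after its values were seen, so what follows is a description with no test. All 15 genes of the file that RefSeq places there passed the filter on low values. Of these, 14 had a lower mean in heat morulae and 10 of 15 were lower at an unadjusted p under 0.05, beside 1.92% of all genes tested. None was higher at that level. Zfp931, Gm14420 and Gm14325 had heat medians under 1 TPM and passed the filter through the control group alone. A gene that passes only through the group where it is high has to differ, so they carry no weight in these counts. The median log2 fold change of the 15 was -0.53. It was -0.52 with detected genes as a covariate, -0.63 with median-of-ratios scaling and -0.69 with quantile normalization. With the Y-linked level as a covariate it was -0.50, with 13 lower and 7 of them at that unadjusted level. The ribosomal protein level as a covariate gave -0.51 and a pseudocount of 0.1 gave -0.69, each with 13 lower and 8 at that level. With quantile normalization 15 were lower and 12 at that level. The summed level of the 15 genes was 91.5, 202.6 and 339.7 TPM in control morulae (lowest, median and highest) and 49.7, 131.9 and 210.6 TPM in heat morulae. The heat embryos were shifted down as a group, and the ranges overlapped between 91.5 and 210.6 TPM.

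Members of the stretch differed in level. Gm14393 and Gm14288 were the most abundant, with control medians of 44.4 and 56.4 TPM and heat medians of 32.2 and 43.9 TPM, although the log2 fold change of Gm14288 was only -0.0091 (SE 0.35). Gm14295 had medians of 23.1 and 13.8 TPM (log2 fold change -0.78, SE 0.29), and Gm14305 of 14.7 and 10.2 TPM (-0.63, SE 0.23). Among lower genes, Gm14391 went from a control median of 8.10 TPM to 3.65 (log2 fold change -0.89, SE 0.26), and Gm14322 from 7.13 to 3.15 (-0.77, SE 0.23). The limma adjusted p was 0.499 for both of these. Gm14326 had medians of 9.71 and 4.78 TPM, Etohi1 of 4.67 and 2.27 TPM, and Gm14420 of 1.84 and 0.78 TPM. Gm6710, Gm14325 and Gm14308 had log2 fold changes of -0.33, -0.33 and -0.19. Gm14405 stood at 0.00088 (SE 0.25). Near-identical copies can exchange reads when transcripts are estimated, so the level of each copy is uncertain and their shifts are not independent of each other.

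In other stretches of the same length (3020471 bases), the highest number of genes lower at an unadjusted p under 0.05 was 5 of 85 tested, on chromosome 19, where 6 more were higher. The chromosome 2 stretch and this length were chosen from the same values, and its copies can share reads. Its place among stretches is therefore no test. Among the 106 tested genes named Zfp with a number, 47 had a lower mean, with 4 lower and 5 higher at that unadjusted level. Their median log2 fold change was 0.03. In 4-cell embryos the 15 chromosome 2 genes were at lower levels, with summed TPM of 19.1, 39.5 and 99.1 in control embryos (n = 16) and 13.0, 42.4 and 211.8 in heat embryos (n = 18; lowest, median and highest). There, 5 of 15 had a lower mean in heat embryos and the median log2 difference was 0.06.

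**Figure D1:**
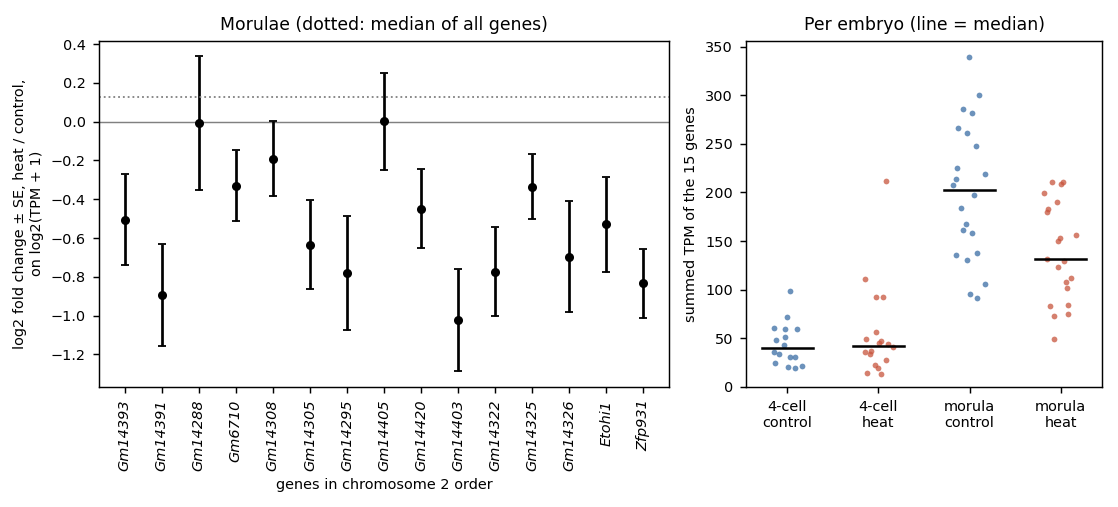
Left, log2 fold change of heat against control morulae with its SE for the 15 genes of the chromosome 2 stretch in genome order, with the median of all tested genes dotted (0.13). Right, summed TPM of the 15 genes in each embryo, with the median as a line (202.6 in control and 131.9 in heat morulae, 39.5 and 42.4 in 4-cell embryos).

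Further genes at the top on the lower side belong to different processes. The uncharacterized 2200002J24Rik (chromosome 7) ranged from 0 to 45.9 TPM in control morulae with a median of 8.42 and from 0 to 10.4 TPM in heat morulae with a median of 1.75 (log2 fold change -1.44, SE 0.32, limma adjusted p = 0.144). The highest values were in controls, and the groups overlapped up to 10.4 TPM. Tmem126a, which encodes a protein of the mitochondrial inner membrane (chromosome 7, 90450700 to 90457203), ranged from 13.2 to 125.0 TPM in control morulae with a median of 26.6, and from 0 to 38.5 TPM in heat morulae with a median of 12.7. Its log2 fold change was -1.36 (SE 0.31, adjusted p = 0.144), and -1.17 without heat replicate 6, in which it was listed at 0.

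Bet1 encodes a SNARE of transport between endoplasmic reticulum and Golgi (chromosome 6, 4076899 to 4086998). It lay between 17.1 and 53.01 TPM in control morulae with a median of 32.4, and between 8.90 and 37.7 TPM in heat morulae with a median of 18.4. The log2 fold change was -0.71 (SE 0.17, limma adjusted p = 0.237). Cyct, the cytochrome c of the testis, is on chromosome 2 at 76353942 to 76360453, away from the stretch above. It ranged from 5.08 to 103.4 TPM in control morulae with a median of 32.4 and from 0 to 38.5 TPM in heat morulae with a median of 11.7 (log2 fold change -1.37, SE 0.34, adjusted p = 0.242). No heat embryo reached the upper part of the control range for Cyct, and most heat embryos were below the control median for both genes.

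The remaining genes of the 10 with the smallest p on the lower side had a limma adjusted p of 0.499. Svs5, a seminal vesicle secretory protein gene, was detected in 18 control and 8 heat morulae, with medians of 10.9 and 0 TPM (log2 fold change -1.83, SE 0.53). 1700019D03Rik had medians of 43.9 and 19.9 TPM and the long noncoding RNA Stamos of 2.44 and 0.40 TPM. Svs5 and Stamos passed the filter on low values through the control group alone, so their lower level carries no weight. Gstp2, a glutathione transferase with a close copy in the genome that can share its reads, had medians of 226.2 and 156.6 TPM.

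On the higher side Erdr1 led. Described as a regulator of erythroid differentiation and listed by RefSeq as a transcribed pseudogene, it lies on chromosome X at 170010526 to 170018797. It ranged from 13.6 to 171.6 TPM in control morulae with a median of 40.1, and from 35.4 to 334.4 TPM in heat morulae with a median of 101.9. Heat embryos were shifted up, with the lower part of the heat range inside that of the controls. The log2 fold change was 1.15 (SE 0.28, limma adjusted p = 0.237). At the 4-cell stage its median TPM was 62.4 with control and 96.8 with heated fathers.

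The other 9 on the higher side had an adjusted p of 0.499 (limma). Ccdc101, a subunit gene of the SAGA chromatin complex, ranged from 55.4 to 142.9 TPM in control morulae with a median of 97.0, and from 82.0 to 258.9 TPM in heat morulae with a median of 123.1 (log2 fold change 0.46, SE 0.13). Zbtb20, a transcriptional repressor, had medians of 2.23 and 6.13 TPM (log2 fold change 1.08, SE 0.31), and Otulin, which removes linear ubiquitin chains, of 3.49 and 8.31 TPM (1.10, SE 0.32). These are low to moderate levels with wide ranges that overlapped. Lincenc1, a long noncoding RNA of pluripotent cells, had medians of 0.52 and 2.81 TPM, the potassium channel gene Kcnk4 of 0.58 and 1.90 TPM, and 8430429K09Rik of 0.70 and 2.40 TPM. Gm11744, C1ql4 and Cib4 had control medians of 0 and heat medians of 1.51, 1.18 and 1.04 TPM. These passed the filter on low values through the heat group alone, so their higher level carries no weight. The same may hold for Lincenc1, Kcnk4 and 8430429K09Rik, whose control medians were also under 1 TPM.

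**Figure D2:**
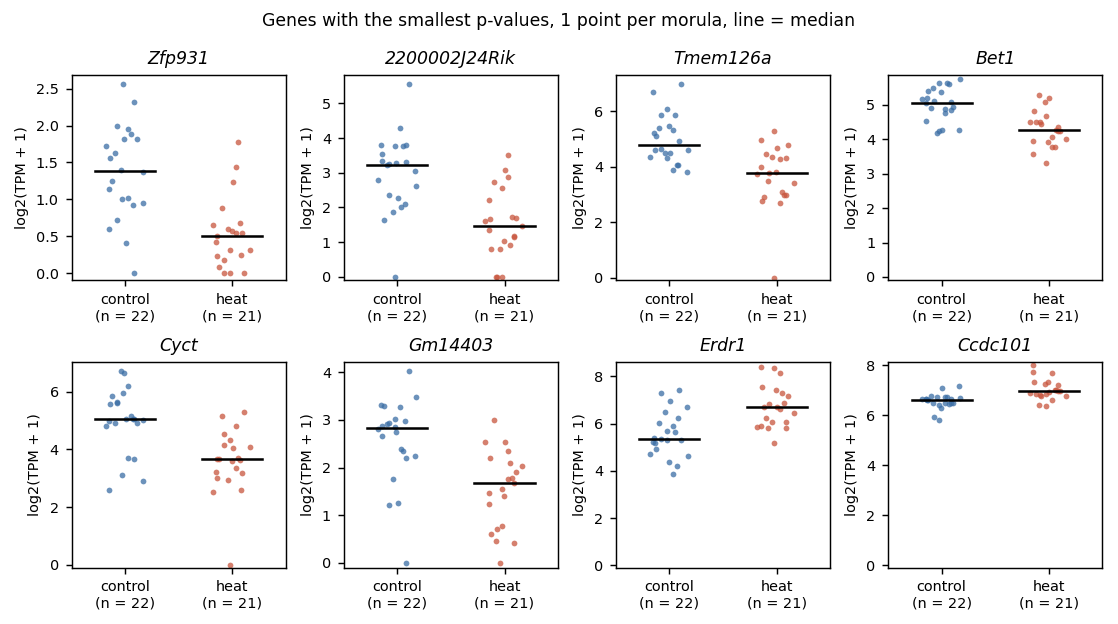
Level of 8 genes with small p-values as log2(TPM + 1), 1 point per morula, with the group median as a line (22 control and 21 heat embryos). Heat embryos sit lower for Zfp931 (medians 1.62 and 0.42 TPM), 2200002J24Rik, Tmem126a, Bet1, Cyct and Gm14403 and higher for Erdr1 (40.1 and 101.9 TPM) and Ccdc101, with overlap in every panel and no gene past the threshold.

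No difference in developmental stage was detected between the groups. A stage score was built from 1621 genes higher and 1055 genes lower in morulae than in 4-cell embryos, chosen over all 77 embryos by stage alone, and scaled so that the mean 4-cell embryo is 0 and the mean morula 1. Control morulae scored 0.998 ± 0.099 (SD, n = 22; lowest 0.783, median 1.00, highest 1.18) and heat morulae 1.00 ± 0.091 (SD, n = 21; 0.861, 1.01 and 1.18). The ranges coincided over nearly their whole length. The difference was 0.00487 with an SE of 0.029 (two-sided permutation test, p = 0.867), which is small beside the distance of 1 between the stages. Its parts leaned in opposite directions: genes higher in morulae alone gave a difference of 0.0781 (permutation test, p = 0.441), and genes lower in morulae alone gave -0.0735 (p = 0.273). With genes at least 4-fold different between the stages the difference was 0.00124 (p = 0.961). The distance of embryos from their group's median score was 0.0801 in control and 0.0746 in heat morulae (permutation test, p = 0.733).

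Within both groups, embryos with a higher score had more detected genes. Pearson's r was 0.61 in control (n = 22) and 0.74 in heat morulae (n = 21), with Spearman's rho of 0.67 and 0.64 (permutation tests, all 4 adjusted p-values at most 0.00238 over 12 relations). Without the 2 embryos farthest from the median number of detected genes, r was 0.70 and 0.62. Over all 43 morulae r was 0.62 and rho 0.64 (both adjusted p = 2.4e-05), and r was 0.70 without the 2 farthest. The score is itself a mean over many genes of the same libraries, so the measures share depth. On the residuals of that relation the difference between heat and control was -0.0269 (permutation test, p = 0.237).

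**Figure D3:**
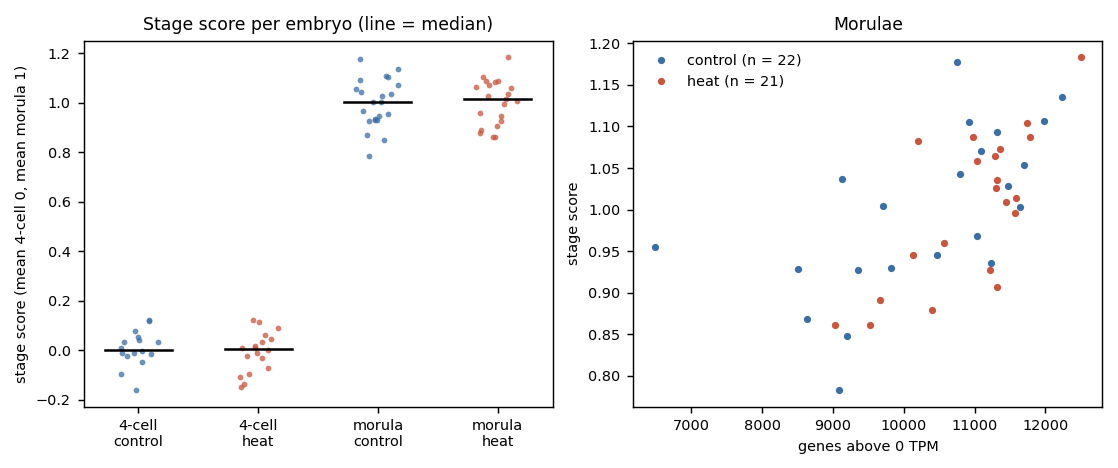
Left, stage score of every embryo (mean 4-cell embryo 0, mean morula 1) with group medians as lines. Right, stage score against genes above 0 TPM in morulae. Control (0.998 ± 0.099) and heat morulae (1.00 ± 0.091) occupy the same range of scores, and embryos with more detected genes score higher in both groups.

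Genes of the outer lineage were wide in range and overlapped between the groups. Of 13 trophectoderm transcription factors tested, 12 had a higher mean in heat morulae and 0 passed the threshold. Their median log2 fold change was 0.21 above that of all genes on the deposited scale and 0.03 below it with detected genes as a covariate (-0.03). Cdx2, which specifies trophectoderm, ranged from 1.25 to 225.9 TPM in control morulae with a median of 18.1 and from 4.04 to 210.4 TPM in heat morulae with a median of 48.2. The groups covered the same range, and the log2 fold change of 0.71 had an SE of 0.51 (limma adjusted p = 0.805). Tead4, the Hippo-responsive partner that switches Cdx2 on, had medians of 33.7 and 40.2 TPM (log2 fold change 0.68, SE 0.38). Klf5 had medians of 70.0 and 112.9 TPM, and Gata3 of 49.6 and 59.7 TPM (log2 fold change 0.22, turning to -0.22 with detected genes as a covariate). Id2, a helix-loop-helix inhibitor of outer cells, was the factor with a lower mean, with medians of 23.0 and 11.0 TPM (log2 fold change -0.88, SE 0.34, unadjusted p = 0.0134, adjusted p = 0.771).

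Downstream genes of outer cells lay near or below the gene-wide median. Of 18 tested, 11 were higher in mean and 7 lower, with a list median 0.07 below that of all genes (-0.07). The keratins of simple epithelia Krt8 and Krt18 had control medians of 90.7 and 186.0 TPM and heat medians of 178.4 and 306.7 TPM (log2 fold changes 0.41, SE 0.47, and 0.43, SE 0.37), signs that turned with detected genes as a covariate (-0.21 and -0.07). Amn, a membrane partner of the cubilin receptor, had medians of 1.25 and 2.86 TPM and the fatty acid binding protein Fabp3 of 262.4 and 231.4 TPM. Of 19 junction and compaction genes, 13 were higher and 6 lower. E-cadherin itself, Cdh1, ranged from 1.62 to 29.98 TPM in control (median 6.77) and from 2.63 to 64.6 TPM in heat morulae (median 8.18; log2 fold change 0.19, SE 0.25). Its partner alpha-catenin Ctnna1 had medians of 56.1 and 65.1 TPM, the claudin Cldn7 of 372.8 and 461.1 TPM, and Epcam of 323.4 and 429.8 TPM. Of 17 pump, water channel and polarity genes 10 were higher, and of 15 Hippo genes 11, among them Wwtr1 (medians 17.4 and 25.6 TPM) and Vgll4 (45.5 and 61.7 TPM). The S100 and annexin genes had the lowest list median relative to all genes on the deposited scale (-0.27, and -0.30 with detected genes as a covariate), with 4 of 13 higher. S100a6 had medians of 14.4 and 9.36 TPM (log2 fold change -0.91, SE 0.31, unadjusted p = 0.00526, adjusted p = 0.771), and S100a10 of 172.9 and 159.8 TPM.

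Inner and pluripotency genes were mostly higher in mean, 19 of 25 tested, as were most of all genes tested. Their list median was 0.06 above that of all genes (0.08 with detected genes as a covariate), with no call. Pou5f1 (Oct4), the central factor of the inner lineage, ranged from 157.7 to 1816.0 TPM in control morulae with a median of 1306.0 and from 630.7 to 2215.4 TPM in heat morulae with a median of 1549.6 (log2 fold change 0.54, SE 0.26, unadjusted p = 0.0443, adjusted p = 0.795). The lowest embryos were controls, and the groups overlapped. Nanog had medians of 63.6 and 95.3 TPM (0.45, SE 0.31), Utf1 of 165.7 and 247.9 TPM (0.61, SE 0.29), Klf4 of 5.83 and 7.86 TPM, and Klf17 of 1.04 and 0.84 TPM. Sox2 was low, with medians of 0.60 and 1.27 TPM (0.04, SE 0.31). Of 13 FGF and primitive endoderm genes 8 were higher. Gata6, a factor of that lineage, had medians of 18.7 and 21.7 TPM (0.24, SE 0.22), the signalling adaptor Grb2 of 17.6 and 23.6 TPM and the collagen Col4a2 of 1.03 and 1.82 TPM.

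No transcript that marks earlier stages passed the threshold. Of 28 genes of the 2-cell program in the file 6 were tested, and all 6 were higher in mean (list median 0.26 above that of all genes, and 0.25 with detected genes as a covariate). Obox6, an egg-type homeobox gene, ranged from 3.98 to 631.6 TPM in control and from 23.4 to 545.5 TPM in heat morulae, with medians of 132.3 and 188.8 TPM (0.93, SE 0.50), and Tcstv3 had medians of 2.98 and 5.37 TPM. The others did not pass the filter, and a gene that passes it only through the group where it is high has to differ, so these counts carry no weight for the list. Of 11 oocyte and maternal-effect genes 5 were higher and 6 lower. Zp3, of the zona pellucida, had medians of 8.51 and 7.51 TPM (-0.09, SE 0.27), and the oocyte growth factor Gdf9, which was not tested, was detected in 7 control and 11 heat morulae. The abundant chromatin protector Dppa3 had medians of 12661 and 10826 TPM (-0.22, SE 0.13), Khdc3 of the subcortical maternal complex of 938.8 and 1414.8 TPM and Padi6 of 3.96 and 7.25 TPM. Of 14 genes that clear maternal mRNA 10 were higher. The uridylating enzyme gene Zcchc6 (Tut7) had medians of 1.74 and 1.09 TPM (-0.48, SE 0.15, unadjusted p = 0.00234, adjusted p = 0.596) and the deadenylase Cnot7 of 10.9 and 9.22 TPM.

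Heat shock genes, which encode chaperones of the cell's response to heat, gave 0 calls. The inducible chaperones Hspa1a and Hspa1b were near 0 and not tested, with medians of 0.035 and 0 TPM in control and 0.46 and 0.36 TPM in heat morulae. Hsph1 had medians of 8.72 and 8.51 TPM (log2 fold change 0.000071, SE 0.29, limma adjusted p = 1.00), and the master regulator Hsf1 of 6.14 and 8.88 TPM (0.35, SE 0.44, turning to -0.28 with detected genes as a covariate). Of 13 HSP70 and exchange factor genes 12 were higher in mean, with a list median 0.12 above that of all genes and 0.08 below it with detected genes as a covariate (-0.08). Bag1 had medians of 63.0 and 76.9 TPM. Of 14 HSP90 genes 12 were higher, such as Ahsa1 (363.4 and 467.2 TPM) and Nudc (256.2 and 332.4 TPM), and of 22 DnaJ genes 17, such as Dnajb1 (46.2 and 59.8 TPM). Heat shock factors, small chaperones and mitochondrial chaperonins leaned the other way, with 3 of 11 higher and a list median 0.26 below that of all genes (-0.26, and -0.21 with detected genes as a covariate). Cryab (alpha B crystallin) had medians of 33.0 and 24.3 TPM (-0.66, SE 0.27, unadjusted p = 0.0186, adjusted p = 0.771), Hspe1 of 506.3 and 431.6 TPM, and Hspb6 of 0.13 and 1.85 TPM. Hspb6 passed the filter on low values through the heat group alone, and Hspb2 (3.42 and 0.82 TPM) through the control group alone. Their directions carry no weight in the count of 11. Of 14 CCT and prefoldin subunits 9 were higher, and Pfdn1 had medians of 220.0 and 187.0 TPM (-0.30, SE 0.14).

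Other stress genes gave 0 calls too. Of 30 genes against reactive oxygen 21 were higher in mean, among them the peroxiredoxin Prdx4, with medians of 109.5 and 131.1 TPM (0.56, SE 0.20, unadjusted p = 0.00912, limma adjusted p = 0.771), and the glutathione synthetase Gss (24.5 and 54.4 TPM). Of 26 genes of the integrated and unfolded protein responses 22 were higher, with a list median 0.13 above that of all genes and 0.03 above it with detected genes as a covariate. Atf4, their transcription factor, had medians of 83.5 and 119.2 TPM (0.53, SE 0.29), the amino acid transporter Slc7a5 of 1.51 and 2.97 TPM, and the chaperone Calr of 267.5 and 351.3 TPM. Of 20 p53 and apoptosis genes 11 were higher. Trp53 had medians of 113.4 and 176.5 TPM, while its target Cdkn1a (p21) had 179.4 and 123.4 TPM (-0.70, SE 0.28, unadjusted p = 0.0157, adjusted p = 0.771). The somatic cytochrome c gene Cycs had medians of 204.2 and 158.2 TPM (-0.40, SE 0.17). Of 35 cell cycle genes 27 were higher and of 37 replication genes 23, such as Pcna (204.3 and 250.1 TPM).

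Among genes that write and read chromatin marks, 12 of 13 DNA methylation genes and 29 of 33 histone modifier genes were higher in mean, beside 67.8% of all genes. Members with a median under 1 TPM in 1 group, such as Kdm4c below, may have passed the filter on low values through the other group alone. Such members carry no weight in these counts. The list medians exceeded that of all genes by 0.10 and 0.08, and by 0.12 and 0.10 with detected genes as a covariate. Mbd3 had medians of 40.1 and 50.2 TPM (0.42, SE 0.19), Trim28, which holds repeats and imprints silent, of 28.6 and 37.7 TPM (0.36, SE 0.20), the demethylase Kdm4c of 0.87 and 1.67 TPM, and the methyltransferase Kmt2d of 2.12 and 3.32 TPM. None had a limma adjusted p under 0.771. Of 12 imprinted genes 7 were higher, with Mcts2 at medians of 116.8 and 84.5 TPM, and of 14 small RNA pathway genes 8, with Tarbp2 at 111.2 and 150.4 TPM. Xist, the RNA of X inactivation, had medians of 0.47 and 0.64 TPM and was not tested. Y-linked genes of the sex-linked list did not pass the filter on low values, and each was found in fewer heat than control embryos. Numbers of control (n = 22) and heat embryos (n = 21) were 12 and 8 for Eif2s3y, 10 and 8 for Ddx3y, and 8 and 5 for Zfy1. They were 8 and 7 for Zfy2, 6 and 5 for Uty, 4 and 3 for Kdm5d, and 4 and 1 for Uba1y. Embryo sex is not labelled, and its part in the results was not tested. The 6 tested genes of the list are X-linked, and 5 of them were higher. The lower gene, named after its value was seen, was Tsix (-0.02), the antisense RNA of Xist, and reads of the pair cannot be told apart where strand was not kept.

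Metabolic lists leaned in different directions on the deposited scale. Nuclear-encoded oxidative phosphorylation subunits had a low list median, with 21 of 75 tested higher and 54 lower, a list median 0.25 below that of all genes (-0.25), and 0.06 above it with detected genes as a covariate. Their summed level was 37011, 57250 and 90253 TPM in control morulae (lowest, median, highest) and 42699, 50974 and 73120 TPM in heat morulae. Ndufb6 of complex I had medians of 821.9 and 590.7 TPM (-0.44, SE 0.16, unadjusted p = 0.00995, limma adjusted p = 0.771), Cox7c of 1194.4 and 854.2 TPM, and Ndufa4 of 1619.4 and 1288.4 TPM. Cox7a1 went the other way with 39.4 and 68.4 TPM (0.85, SE 0.31). Of 76 mitochondrial ribosomal proteins 36 were higher and 40 lower, with Mrpl33 at 649.7 and 471.5 TPM and Mrps18b at 1022.1 and 1171.2 TPM. Of 28 genes of pyruvate entry and the citric acid cycle 19 were higher, such as Mdh1 (0.68, SE 0.36) and Idh3g (0.60, SE 0.32). Of 17 glycolysis genes 14 were higher, among them Pgk1 (medians 12.2 and 24.8 TPM), and Hk2 had medians of 10.2 and 8.24 TPM (-0.41, SE 0.20). Of 29 cholesterol and lipid genes 20 were higher, including Ebp (148.4 and 253.4 TPM) and Mvk (7.52 and 12.8 TPM).

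Cytosolic ribosomal protein genes took 13.6% to 34.3% of all TPM in control (median 26.5%) and 17.4% to 36.4% in heat morulae (median 25.2%). Of 85 tested 59 were higher, with a list median 0.07 below that of all genes (-0.07) and 0.22 above it with detected genes as a covariate. Rps9 had medians of 2230.1 and 2700.1 TPM (0.25, SE 0.08, unadjusted p = 0.00379, limma adjusted p = 0.748) and Rpl6 of 1524.5 and 1865.8 TPM (0.32, SE 0.11). Rps4x and Rpl8 had log2 fold changes of 0.42 and 0.32. Of 42 translation initiation factors 35 were higher, such as Eif6 (0.40, SE 0.15) and Eif3g (0.35, SE 0.14), of 34 tRNA synthetases 25, with Tars the other way at 34.0 and 26.6 TPM (-0.55, SE 0.19), of 29 nucleolar genes 25, such as Fbl (0.44, SE 0.18), and of 33 proteasome subunits 22, such as Psmd4 (0.28, SE 0.14). Of 16 genes used for normalisation 14 were higher, and Actb had medians of 3995.0 and 4241.3 TPM (0.29, SE 0.25). Of the blood and connective tissue list 2 genes were tested, Hba-a2 (-0.37, SE 0.44) and Cd68 (0.31, SE 0.39). Over the 37 lists with at least 3 tested genes, 20 kept their side of the gene-wide median under 4 changes of scale (the low pseudocount, both scalings and the covariate). Those that changed side under at least 1 of them were the trophectoderm factors, junction, primitive endoderm, oocyte, HSP70, HSP90, DnaJ, cell cycle, replication, glycolysis, citric acid cycle, cholesterol, proteasome, cytosolic and mitochondrial ribosomal, oxidative phosphorylation and tRNA synthetase lists.

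**Figure D4:**
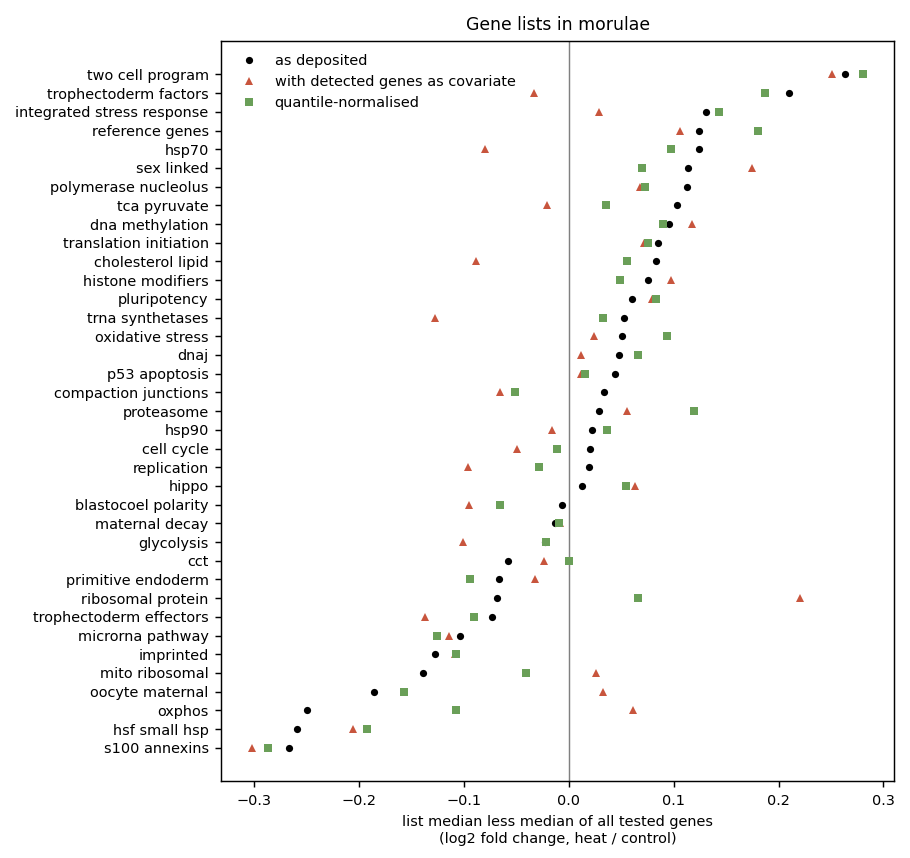
Median log2 fold change of each gene list less the median of all tested genes, on the deposited scale, with detected genes as a covariate and after quantile normalization. S100 and annexin genes are lowest (-0.27) and the 2-cell program highest (0.26), and oxidative phosphorylation (-0.25) changes side with the covariate (0.06).

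Heat morulae had the smaller spread in most genes, with no gene called. The absolute deviation of an embryo from its group median was smaller in heat morulae for 80.3% of 7897 genes, with a median difference of -0.14 on the log2(TPM + 1) scale. With limma 0 genes (0%) had an adjusted p under 0.05. At an unadjusted p under 0.05, 478 genes (6.05%) were narrower and 15 wider in heat morulae. With detected genes taken out of the levels first, 67.1% were narrower. There, 372 genes had an unadjusted p under 0.05, of which 338 were narrower and 34 wider. Narrower genes at that level numbered 309 without control replicate 17 and 796 without heat replicate 6, the lowest and highest counts when 1 embryo was left out. Genes with the smallest p were AA465934, whose SD was 3.30 in control and 2.19 in heat morulae, the galactokinase Galk1 (1.09 and 0.42), 3110001I22Rik (1.34 and 0.78), Cpn1 (1.396 and 0.521) and Hes6 (1.49 and 0.64). Galk1 ranged from 49.6 to 998.5 TPM in control and from 311.4 to 932.3 TPM in heat morulae, so its lowest embryos were controls. On the wider side were 2410141K09Rik (0.28 and 0.60), Spink4, Cib4, Gramd2 and 1700019D03Rik. Spink4, Cib4 and Gramd2 had control medians of 0 TPM and heat medians of 1.20, 1.04 and 1.37 TPM. They passed the filter on low values through the heat group alone, so their wider spread there carries no weight. The adjusted p of all 10 was 0.678.

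The first principal component held 46.2% of the variance. Control embryos reached further on both ends of it, from -103.1 to 123.3, than heat embryos, from -79.7 to 87.8. The SDs on it were 71.0 and 51.2. The second component held 8.89% and set heat replicate 6 apart, at 101.4 against at most 51.7 in the other 42. In that embryo 6.89% of detected genes were under 1 TPM, and in control replicate 15, which had the fewest detected genes (6480), 2.53% were. In the remaining 41 the share ran from 19.9% to 37.1%. Zfp931, 2200002J24Rik, Tmem126a and Cyct were listed at 0 in heat replicate 6. Without it their log2 fold changes were -0.81, -1.36, -1.17 and -1.19, and 0 genes were called. What set these libraries apart was not tested.

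**Figure D5:**
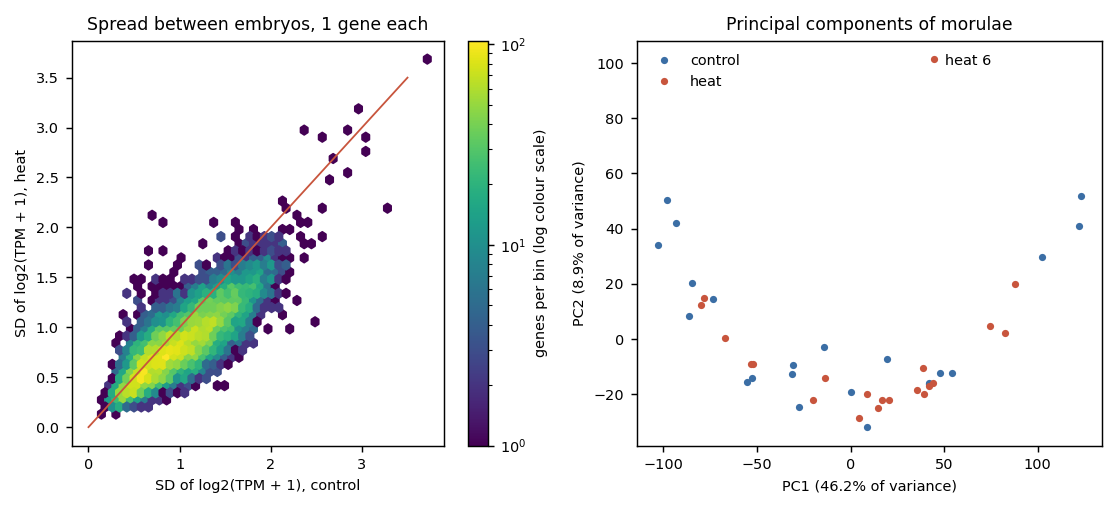
Left, SD of log2(TPM + 1) in heat against control morulae for 7897 genes, with equality as a line; 80.3% of genes have the smaller deviation in heat. Right, the first 2 principal components of the 43 morulae, on which controls reach further along the first (46.2% of variance) and heat replicate 6 stands apart on the second (8.9%).

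Genes were also compared by the number of embryos in which they were above 0 TPM, including some that the filter on low values drops. Genes of the level test were not left out, so the sets overlap, with Svs5 in both. Of 6615 genes detected in 5 to 38 morulae, 0 (0%) had an adjusted p under 0.05 by Fisher's exact test, and 348 had an unadjusted p under 0.05, of which 321 were detected in more heat and 27 in fewer heat embryos. Without control replicate 15 the count was 211. Counting embryos with at least 1 TPM gave 237 genes, of which 165 were in more heat and 72 in fewer heat embryos. Dmpk and Tbkbp1 were each above 0 in 4 of 22 control and 15 of 21 heat morulae, and Cd79a, Gm5868 and Kcp in 0 and 8. Hrct1 was detected in 17 control and 5 heat morulae, Pde8a in 11 and 2, Tmem202 in 7 and 0, and Iqsec3 in 9 and 1 (Fisher's exact test, adjusted p = 0.806 for all of these). Heat morulae also had more detected genes in mean (10951 against 10299), and the part of this in the counts was not tested.

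The difference by father in morulae was also set against that in 4-cell embryos. The interaction of stage and paternal heat was tested with limma for 8689 genes over all 77 embryos, and 0 (0%) were called at an adjusted p under 0.05. At an unadjusted p under 0.05, 114 had a more positive and 344 a more negative difference in morulae, with a median interaction of -0.11 and a smallest adjusted p of 0.199. Ccdc101 had the smallest p, with a log2 fold change of -0.45 at the 4-cell stage and 0.46 in morulae (interaction 0.91, SE 0.22). Ankrd24 had -1.74 and 0.04, Fdx1l -1.04 and 0.12, Slc39a13 -1.25 and 0.22, and Gm16497 -0.79 and 0.01. Slc39a13 and Gm16497 passed the filter on low values through the control 4-cell embryos alone (medians 2.16 and 1.12 TPM). Their contrasts therefore carry no weight. In the other direction Mms19 had 0.99 and -0.53, Xaf1 0.87 and -0.68, 2200002J24Rik 0.56 and -1.44, Emp2 1.09 and -0.59, and Fastkd3 1.12 and -0.71. Emp2, an epithelial membrane protein gene, had medians of 0.04 and 3.45 TPM in control and heat 4-cell embryos and of 29.96 and 23.4 TPM in morulae. Fastkd3 was also near 0 in control 4-cell embryos (median 0.08 TPM, beside 2.34 TPM in heat 4-cell embryos). Some of the genes nearest the threshold in morulae had similar values at the 4-cell stage. Cyct had log2 fold changes of -1.17 at the 4-cell stage and -1.37 in morulae, and Erdr1 of 0.89 and 1.15.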

How the data were processed

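Embryo values are TPM as deposited by the authors. The tools named, per the submitters' processing notes, are RSEM, Bowtie2 and Trimmomatic with build mm10; their versions and roles are not given in the sources used here. Each of 77 embryo columns adds up to 1000000 (within 0.92), so depth is unknown. Per the labels' protocols, single embryos were lysed, RNA was captured on RNA-Clean XP beads and libraries were made with a Nextera XT kit. Embryos were grouped by the treatment label. The sperm counts were not used here.

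Genes with at least 1 TPM in at least 50% of the embryos of a group entered limma 3.58.1 on log2(TPM + 1) (R 4.3.3, mean-variance trend, no covariate, two-sided, Benjamini-Hochberg adjusted p under 0.05). Fold changes on this scale understate the change of low genes. Spread was tested with limma on absolute deviations from the group median, detection with Fisher's exact test, and per-embryo values with 100000 permutations (scipy 1.17.1). The scripts were tested on simulated data. Symbols were matched to RefSeq GRCm38.p6 (7430 of 7897 current, 443 older). Named genes are the 10 smallest p-values each way, up to 4 members per list (of 41 lists), the 5 smallest p-values each way for spread, detection and interaction, and a set of stage and stress genes. Members, lists and rules were chosen with earlier results of these data known. No 2 embryo columns held identical values. One gene that the rule names is not reported here. The list of mitochondrially encoded genes has 0 genes in the file.

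Alternatives covered pseudocounts, filters, weights, covariates, scalings, a replicate block, a rank fit, a shared fit and each embryo left out.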

Additional observations from a re-analysis of the deposited data

How the results depend on the processing

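The statements below hold for the alternatives named. The 7897 genes gave 0 calls in every alternative except the fit on all 77 embryos, with 2 calls, and when 1 morula was left out, with 0 to 1. Genes at an unadjusted p under 0.05 (478) numbered 901 with array weights, 1296 with the ribosomal protein level as a covariate, and 353 to 692 with 1 morula left out. Leaving out each morula and the stage score as a covariate (705 genes) were chosen after seeing the data. The median log2 fold change of all genes (0.13) was 0.22 with a pseudocount of 0.1, 0.037 with 10, 0.037 with no filter, 0.23 with the ribosomal covariate, 0.046 with median-of-ratios scaling, -0.070 with detected genes as a covariate and -0.0032 with quantile normalization, and 0.097 to 0.19 with 1 morula left out. The replicate numbers of the labels do not pair embryos: over 21 same-numbered pairs the deviations correlated at -0.447 to 0.736 (median -0.0314), 6 pairs were over 0.1 and 2 correlated best with their own number. With the number as a replicate block 0 genes were called and 491 had an unadjusted p under 0.05. The stage score difference was -0.0269 on residuals, -0.0735 for genes lower and 0.0781 for genes higher in morulae alone, and -0.00535 to 0.0135 with 1 morula left out. The difference in detected genes was 251 from 1 TPM, 190 from 5 TPM and 470 to 748 with 1 morula left out. Genes narrower in heat numbered 309 to 796 with 1 morula left out, and genes differing in detection (348) 211 without the morula of few detected genes and 237 from 1 TPM. For 116 genes named here 29 of 1833 values under 16 alternatives changed sign, in 9 genes. With detected genes as a covariate Gata3 stood at -0.22, Hsf1 at -0.28, Krt18 at -0.067, Krt8 at -0.21, Hsph1 at -0.17 and Gm14405 at -0.077. Hsph1 stood at -0.0016 with a pseudocount of 0.1, -0.12 with median-of-ratios scaling, -0.11 with quantile normalization, -0.056 without the morula of few detected genes, -0.37 ranks in the rank fit and -0.0094 with the stage score. Sox2 stood at -0.0074 with a pseudocount of 10, -0.017 with array weights, -0.0034 with the ribosomal covariate, -0.11 with median-of-ratios scaling and -0.27 with quantile normalization. Gm14405 stood at -0.012 with a pseudocount of 10, -0.20 with array weights, -0.084 with median-of-ratios scaling, -0.18 with quantile normalization, -0.0074 with the replicate block, -0.069 without the morula of few detected genes and -0.0031 with the stage score. Gm14288 stood at 0.14 with a pseudocount of 0.1, 0.10 with the Y-linked covariate, 0.0038 with the ribosomal covariate and 0.0048 with the stage score. Zp3 stood at 0.0081 with a pseudocount of 0.1, as did the interaction of Cyct at 0.61. With 1 morula left out, Gm14288 ranged from -0.27 to 0.069, Gm14405 from -0.094 to 0.087, Hsph1 from -0.18 to 0.10 and Sox2 from -0.080 to 0.14. The cause was not tested. TPM without depth limits what low genes can show.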
